A study of Mus musculus with 8 samples.

Results

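The growing-neuron genes are a set of 34 genes that young cortical neurons use while they extend axons and dendrites, and they were examined here in the cortex of mice without Nova2. They were named as a list, and their probe sets were taken where the platform annotation gave that gene alone. Of the 34 genes, 31 had 3 or more such probe sets above a floor of brightness and so a gene value, out of 11992 genes with a gene value in all. The gene value of an array is the median log2 signal over the probe sets of the gene. The list was drawn up from the difference between Nova2 KO and wild type in these same arrays, so that difference is described below, no p-value is given for a single member, and counts of members past a threshold are printed beside those of all genes as a description.

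Nova2 is an RNA-binding protein of neurons that controls alternative splicing, and the study set its knockout against wild type. The tissue was cortex of CD1 mice aged 10 days after birth, 4 of them wild type and 4 labelled Nova2 KO, and each mouse was read on 1 exon array. Strain, age and tissue were the same in both groups. The labels give neither the deleted part of Nova2 nor the sex or litter of the mice.

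A neuron that grows an axon needs soluble tubulin, proteins that control microtubule ends, and membrane and actin proteins of the growth cone. The collapsin response mediator proteins (Dpysl2 to Dpysl5 and Crmp1) bind tubulin and carry signals from guidance cues, and stathmins bind tubulin dimers and promote microtubule disassembly. Ncam1, an adhesion molecule, carries polysialic acid in the immature brain, which weakens adhesion. Transcription factors of the SoxC and Neurod families drive this programme, and most of its genes decline as the cortex matures.

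The arrays were alike in quality apart from those numbered 4. Array medians ran from 7.02 (wild type 4) to 7.37 log2 (Nova2 KO 2), and those of both arrays numbered 4 were the lowest. Spearman correlations between arrays were 0.935 to 0.976. Of the 16 kept Nova2 probe sets, 5294108 read 8.53 to 8.87 log2 on the wild type arrays and 6.28 to 7.26 log2 on those of Nova2 KO, a difference of -1.82 log2 (SE 0.22; limma adjusted p = 0.000188 over the Nova2 probe sets and 0.0786 over all kept probe sets). Probe set 4414499 was higher in Nova2 KO, by 0.70 log2 (limma adjusted p = 0.00306 over the Nova2 probe sets and 0.321 over all kept probe sets). The other 14 had a limma adjusted p of 0.0957 or more over the Nova2 probe sets. A lower signal with an adjusted p under 0.05 over the Nova2 probe sets thus shows on 1 of them, and not along the whole gene.

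Most growing-neuron genes were somewhat higher in Nova2 KO, by amounts that were small for each gene. Of the 31 measured members, 28 had a higher mean in Nova2 KO and 3 had a lower one, while 55.4% of all genes were higher. The median difference was 0.18 log2 over the members and 0.022 log2 over all genes. Differences ran from 0.47 log2 for St8sia2, an enzyme that builds polysialic acid, to -0.20 log2 for Basp1, a membrane protein of growth cones. For St8sia2 that is a Nova2 KO level 1.38 times that of wild type. No member passed the adjusted threshold of 0.05 in limma over all genes, which 0.0917% of all genes passed as higher and 0.117% as lower. At an unadjusted p under 0.05, 13 members were higher and 0 lower, against 7.86% and 3.72% of all genes. Because the same contrast chose the list, nothing is read from these counts. In bulk cortex, a difference in the number of cells of a type and a difference in RNA per cell cannot be told apart.

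The members were mostly bright, and bright genes as a whole were also higher in Nova2 KO. Of 1483 genes with a mean gene value above 10 log2, 66.8% were higher, with a median of 0.078 log2. The 22 members in that range had a median of 0.23 log2, with 20 of them higher. The 9 dimmer members had a median of 0.15 log2, with 8 higher. The part of the brightness in the member differences was not tested.

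**Figure D1:**
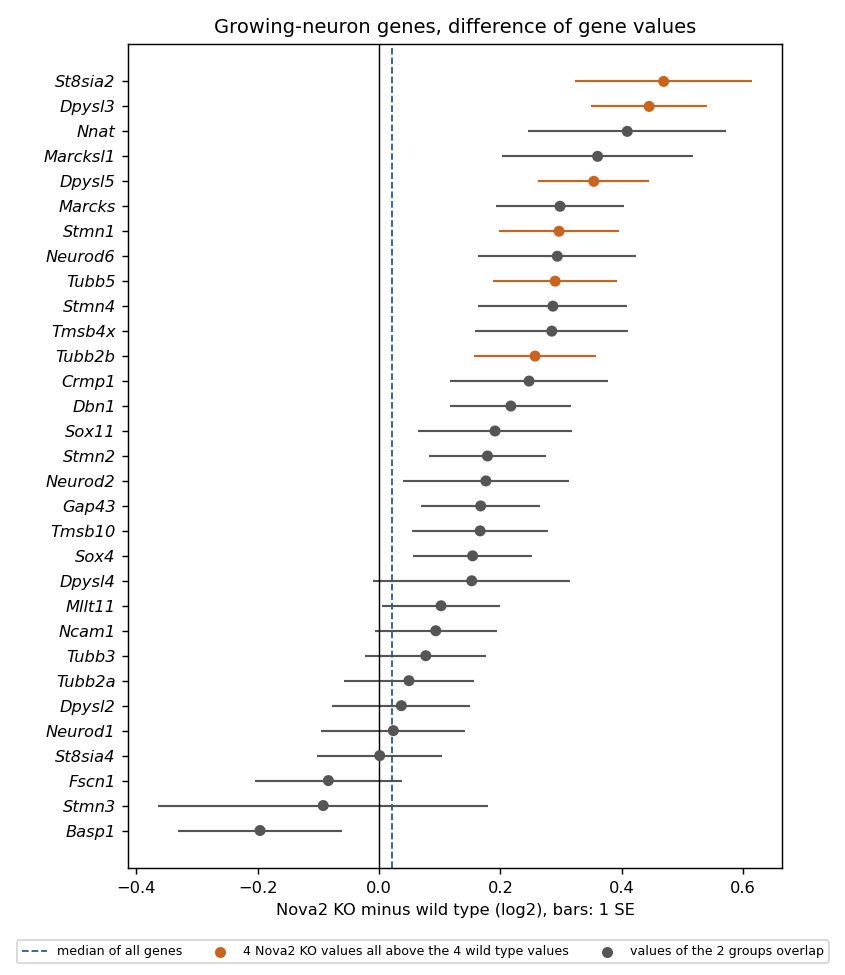
Difference of gene values between Nova2 KO and wild type (x axis, log2; bars, 1 SE of the limma fit, n = 4 per group) for the 31 measured growing-neuron genes, ordered by size. The points run from -0.20 (Basp1) to 0.47 (St8sia2), and 28 of 31 lie right of 0; orange points are the 6 genes whose groups do not overlap.

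**Figure D2:**
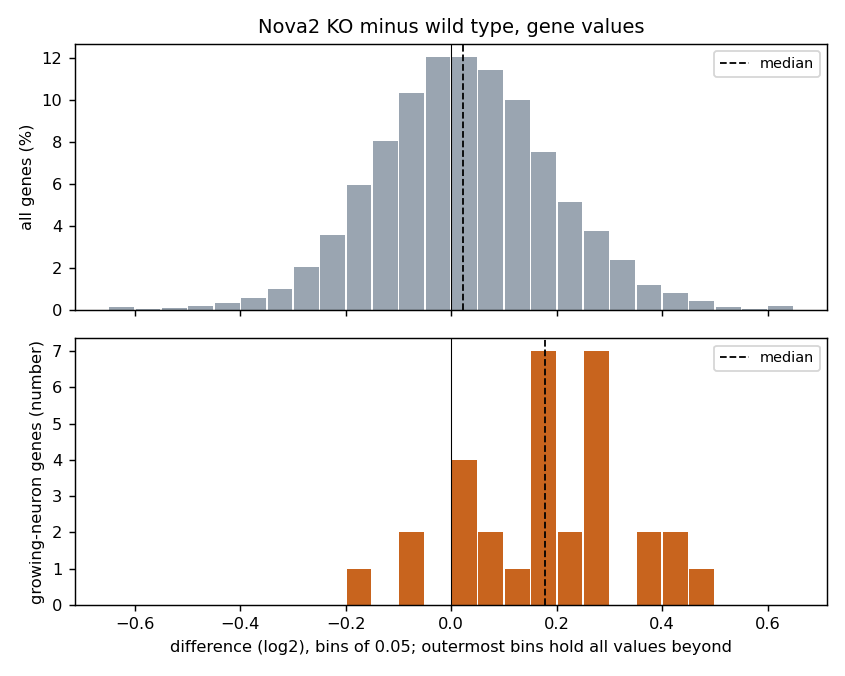
Differences of gene values (x axis, log2, bins of 0.05) as the share of all 11992 genes (top, percent) and as the number of the 31 growing-neuron genes (bottom). The dashed medians lie at 0.022 and 0.18 log2.

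In 6 members the 4 Nova2 KO values all lay above the 4 wild type values, and in none did they all lie below. Among all genes, 5.06% were separated upwards and 2.5% downwards. The 6 were St8sia2, Dpysl3, Dpysl5, Stmn1, Tubb5 and Tubb2b. Promoter windows of RefSeq on GRCm38.p6 are printed for St8sia2, Dpysl5 and Tubb5, as a description of the sequence before their starts. Dpysl3, Stmn1 and Tubb2b had no window. Each is the stretch of 250 bases before the start of transcription, 5′ to 3′ on the strand of the gene, with E-boxes (CANNTG, the letters that Neurod and other basic helix-loop-helix factors can bind; the pattern reads the same on both strands) in capitals. The window of St8sia2 (chr7:74013683-74013932, minus strand) holds 0 E-boxes, that of Dpysl5 (chr5:30711314-30711563, plus strand) holds 1 and that of Tubb5 (chr17:35838302-35838551, minus strand) holds 1.
St8sia2: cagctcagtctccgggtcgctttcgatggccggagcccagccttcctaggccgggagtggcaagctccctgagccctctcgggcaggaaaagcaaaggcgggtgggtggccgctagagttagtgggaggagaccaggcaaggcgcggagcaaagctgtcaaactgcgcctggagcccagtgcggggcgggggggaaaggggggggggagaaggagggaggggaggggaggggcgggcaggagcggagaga
Dpysl5: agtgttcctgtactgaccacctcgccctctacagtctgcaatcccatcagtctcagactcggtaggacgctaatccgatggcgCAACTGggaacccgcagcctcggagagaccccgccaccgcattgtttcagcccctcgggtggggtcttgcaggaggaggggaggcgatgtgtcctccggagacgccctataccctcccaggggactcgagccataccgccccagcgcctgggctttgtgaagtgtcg
Tubb5: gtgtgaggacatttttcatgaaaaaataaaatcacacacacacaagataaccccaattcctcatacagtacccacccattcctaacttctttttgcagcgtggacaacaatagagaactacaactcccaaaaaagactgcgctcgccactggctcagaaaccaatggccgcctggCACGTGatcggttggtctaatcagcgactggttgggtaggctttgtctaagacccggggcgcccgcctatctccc

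The sequences differ in make-up. The G and C content of these stretches was 68.8% for St8sia2, 62.8% for Dpysl5 and 49.2% for Tubb5, and they held 15, 17 and 10 CpG pairs. Over the longer windows of 300 bases, which also take in the first bases of the transcript, 22 members had an entry. In 20 of these 22, the ratio of observed to expected CpG was above 0.6, against 36.4% of 27025 genes with a window, which include pseudogenes and noncoding genes. The GC box (GGGCGG, either strand) stood in 17 of 22 members and in 38.2% of all genes. E-boxes stood in 16 of 22 members and in 75% of all genes. The letters ACAAAG, found in binding sites of Sox factors (either strand), stood in 5 of 22 and in 21% of all genes, and TATAAA (either strand) in 2 of 22 and in 15.7%. The cAMP response element (TGACGTCA) stood in 2 members, Tubb2a and Fscn1, and in 2.03% of all genes. The windows are a description of letters and say nothing of which factors act there.

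The 5 collapsin response mediator proteins were all higher in Nova2 KO, but by unequal amounts. Dpysl3, whose protein regulates the growth cone of young neurons, lay at 11.73, 11.59, 11.86 and 11.72 log2 in wild type arrays 1 to 4 and at 12.24, 12.08, 12.17 and 12.18 log2 in the Nova2 KO arrays. The groups were separated by 0.22 log2, and the spread within each was small (SD 0.11 and 0.065, n = 4). The difference was 0.45 log2 (SE 0.096), a ratio of 1.36.

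Dpysl5, the most divergent of the family, lay at 11.31, 11.20, 11.22 and 11.17 log2 in wild type and at 11.69, 11.58, 11.51 and 11.53 log2 in Nova2 KO. The groups were again apart, by 0.20 log2, and the difference was 0.35 log2 (SE 0.091). Crmp1, which acts downstream of semaphorin 3A, differed by 0.25 log2 (SE 0.13). Its groups overlapped because Nova2 KO 3, at 11.71 log2, lay among wild type values of 11.50 to 11.95 log2. Dpysl4 differed by 0.15 log2 (SE 0.16), and by 0.019 log2 without wild type 3. Dpysl2, the founding member and a tubulin-binding protein of axons, was at 12.71 ± 0.15 log2 in wild type against 12.74 ± 0.16 log2 in Nova2 KO (mean ± SD, n = 4). Its difference of 0.037 log2 (SE 0.11) was -0.029 log2 without wild type 4. Within this family, Dpysl3, Dpysl5 and Crmp1 thus differed by 0.25 to 0.45 log2, while Dpysl4 and Dpysl2 each differed by less than the SE.

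**Figure D3:**
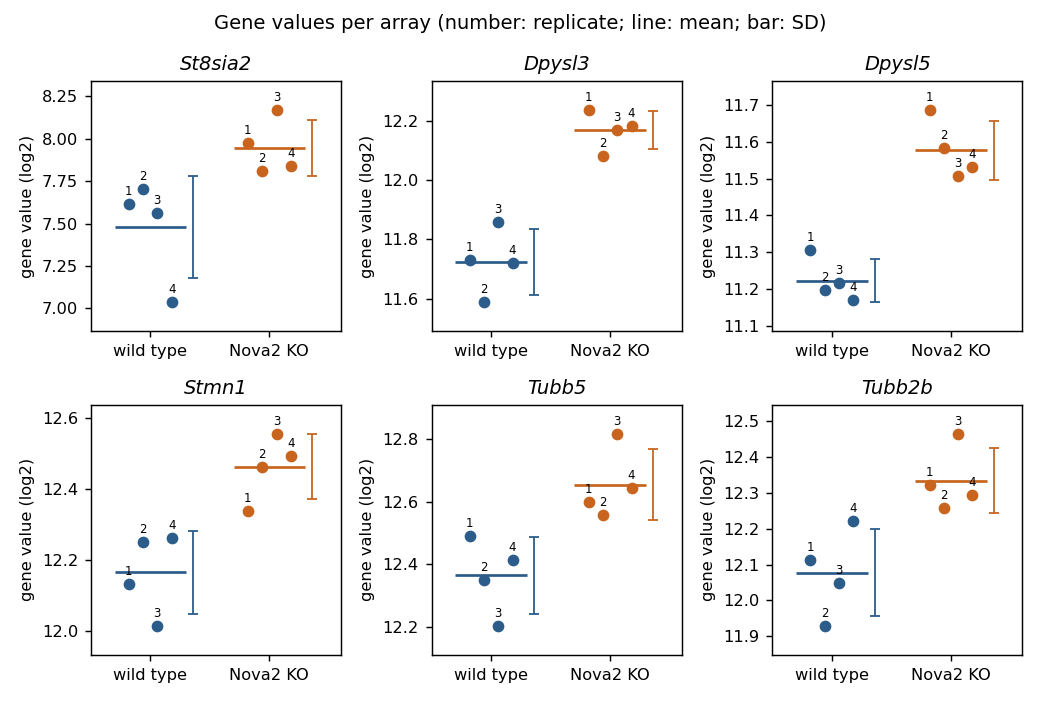
Gene values (y axis, log2) on each array for the 6 growing-neuron genes whose groups do not overlap, with the replicate number above each point, the group mean as a line and the SD as a bar. The axes do not start at 0. In each panel the 4 Nova2 KO points lie above the 4 wild type points, with gaps from 0.038 log2 (Tubb2b) to 0.22 log2 (Dpysl3).

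Of the 4 stathmins, Stmn1, Stmn2 and Stmn4 were higher and Stmn3 was not. Stmn1, the stathmin found in dividing and young cells, lay at 12.13, 12.25, 12.02 and 12.26 log2 in wild type and at 12.34, 12.46, 12.56 and 12.49 log2 in Nova2 KO. The lowest Nova2 KO value stood 0.077 log2 above the highest wild type value. The difference was 0.30 log2 (SE 0.099), a ratio of 1.23. Stmn4 (RB3) lay at 9.88, 10.004, 10.25 and 10.09 log2 in wild type and at 10.06, 10.52, 10.34 and 10.46 log2 in Nova2 KO, and only Nova2 KO 1 lay within the wild type range. The difference was 0.29 log2 (SE 0.12), and 0.14 log2 with the mean over probe sets. Stmn2 (SCG10), a palmitoylated stathmin of growth cones, differed by 0.18 log2 (SE 0.096). In Stmn2, Nova2 KO 2 (12.40 log2) lay within the wild type range of 12.27 to 12.41 log2.

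Stmn3 (SCLIP) showed how a gene value can rest on weak probe sets. Its gene value was 7.89 ± 0.40 log2 in wild type against 7.80 ± 0.63 log2 in Nova2 KO, a difference of -0.092 log2 (SE 0.27). Of its 11 kept probe sets, 5 were bright, at 11.66 to 13.16 log2 in wild type, and these differed by only -0.062 to 0.056 log2. The other 6 were dim, at 6.08 to 7.70 log2, and differed by -0.77 to 0.46 log2. The gene value, a median, was set by the dim ones. With the filter at the 50th percentile the difference was 0.054 log2.

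The tubulins were higher in all 4 measured members, most in Tubb5 and Tubb2b. Tubb5, a beta tubulin of young neurons and progenitors, lay at 12.49, 12.35, 12.20 and 12.41 log2 in wild type and at 12.60, 12.56, 12.82 and 12.64 log2 in Nova2 KO, a difference of 0.29 log2 (SE 0.10). Tubb2b, a beta tubulin of migrating neurons, lay at 12.11, 11.93, 12.05 and 12.22 log2 in wild type and at 12.32, 12.26, 12.47 and 12.29 log2 in Nova2 KO, a difference of 0.26 log2 (SE 0.100). Both sets of groups were separated, by 0.067 and 0.038 log2, which is less than the SD within either group.

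Tubb3, the neuron-specific beta tubulin, differed by 0.077 log2 (SE 0.099) and Tubb2a, the close copy of Tubb2b, by 0.049 log2 (SE 0.11). The difference of Tubb2a was -0.0066 log2 without Nova2 KO 1. Beta tubulin genes are near copies of each other, so a probe set can take up signal from more than 1 of them, and the split between Tubb2a and Tubb2b is uncertain. Tuba1a, the main alpha tubulin of growing neurons, had 2 probe sets of its own, too few for a gene value, and 7 more that also named other genes. Its probe set 5446760 lay at 12.31 to 12.41 log2 in wild type and at 12.51 to 12.69 log2 in Nova2 KO, a difference of 0.27 log2 (SE 0.11). The brighter probe set 5471006 (13.76 log2 in wild type) differed by 0.089 log2 (SE 0.12).

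Among the membrane proteins of the growth cone, Marcks and Gap43 were higher on every probe set and Basp1 on none. Marcks, which binds phosphoinositides and actin until protein kinase C releases it, lay at 10.61, 10.77, 10.53 and 10.42 log2 in wild type and at 10.74, 10.98, 10.86 and 10.94 log2 in Nova2 KO. Only Nova2 KO 1 lay within the wild type range. The difference was 0.30 log2 (SE 0.11), and all 9 kept probe sets were higher. Gap43, a protein kinase C substrate of axonal growth cones, differed by 0.17 log2 (SE 0.098), and its 7 probe sets differed by 0.10 to 0.25 log2.

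Basp1, which works beside Gap43 and Marcks at the membrane, was at 11.38 ± 0.21 log2 in wild type against 11.18 ± 0.22 log2 in Nova2 KO. Its difference of -0.20 log2 (SE 0.14) was -0.089 log2 with the mean over its 5 probe sets, which differed by -0.27 to -0.023 log2. Marcksl1, a smaller relative of Marcks, lay at 10.92, 11.19, 11.37 and 11.71 log2 in wild type and at 11.53, 11.60, 11.58 and 11.92 log2 in Nova2 KO, with wild type 4 above 3 of the Nova2 KO arrays. Its gene value differed by 0.36 log2 (SE 0.16), yet only 1 of its 5 probe sets differed by that much. That probe set, 5006852, differed by 0.51 log2, while the other 4 differed by -0.17 to 0.019 log2. With the mean over probe sets the Marcksl1 difference was 0.060 log2.

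The actin binding proteins went both ways. Tmsb4x and Tmsb10, the beta thymosins that hold actin monomers, differed by 0.28 log2 (SE 0.13) and 0.17 log2 (SE 0.11). In Tmsb4x, Nova2 KO 3 and 4 (11.62 and 11.55 log2) lay above all wild type arrays, which read 11.14, 11.005, 10.98 and 11.26 log2, and Nova2 KO 1 and 2 (11.20 and 11.16 log2) lay within the wild type range. Dbn1, the drebrin of growth cones and spines, differed by 0.22 log2 (SE 0.099), and 3 of its 4 Nova2 KO arrays exceeded the wild type maximum. Fscn1, which bundles actin in filopodia, was at 11.20 ± 0.14 log2 in wild type against 11.12 ± 0.20 log2 in Nova2 KO, a difference of -0.084 log2 (SE 0.12), and 11 of its 13 probe sets were lower.

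For polysialic acid, the enzyme gene St8sia2 was higher while St8sia4 and the carrier Ncam1 differed by less than their SE. St8sia2, the polysialyltransferase of the young brain, lay at 7.62, 7.70, 7.56 and 7.04 log2 in wild type and at 7.97, 7.81, 8.17 and 7.84 log2 in Nova2 KO. Wild type 4 was the lowest of its group, and the groups did not overlap. The difference was 0.47 log2 (SE 0.15), and 0.32 log2 without wild type 4. Of its 8 probe sets, 7 differed by 0.41 to 0.81 log2 and 1 by -0.013 log2.

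St8sia4, the polysialyltransferase that persists in the adult, was at 7.59 log2 in both groups, a difference of 0.0011 log2 (SE 0.10). Ncam1 differed by 0.093 log2 (SE 0.10) over 41 probe sets, of which 27 were higher. Cd24a, a surface protein of young neurons, had 15 probe sets that all named a second gene as well, and Igfbpl1 had no probe set under its name, so neither was measured by the rule used here.

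The 5 transcription factors were higher by small amounts. Neurod6, a factor of young pyramidal neurons, lay at 9.26, 9.16, 9.60 and 9.47 log2 in wild type and at 9.37, 9.83, 9.76 and 9.71 log2 in Nova2 KO. Nova2 KO 1 lay among the wild type values, and the difference was 0.29 log2 (SE 0.13), with all 5 probe sets higher. Neurod2, which drives differentiation of cortical neurons, differed by 0.18 log2 (SE 0.14), and 0.036 log2 with the mean over probe sets. Neurod1 differed by 0.023 log2 (SE 0.12), and by -0.054 log2 without wild type 4. Sox11 and Sox4, which act in newborn neurons, differed by 0.19 log2 (SE 0.13) and 0.15 log2 (SE 0.098). In Sox11 the lowest of all 8 values was that of Nova2 KO 4, while the other 3 Nova2 KO values exceeded all wild type values.

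Of the remaining members, Nnat (neuronatin), an imprinted gene of a small membrane protein of the developing brain, lay at 11.05, 11.14, 11.07 and 11.51 log2 in wild type and at 11.42, 11.23, 11.95 and 11.82 log2 in Nova2 KO. Wild type 4 lay above Nova2 KO 1 and 2, so the groups overlapped. The difference was 0.41 log2 (SE 0.16), and 0.29 log2 without Nova2 KO 3. Of its 28 probe sets, 25 were higher. Nnat lies inside an intron of Blcap, so probe sets assigned to it may take up signal of both genes. Mllt11, a small protein that young neurons express strongly, differed by 0.10 log2 (SE 0.097), with its 5 kept probe sets higher by 0.10 to 0.28 log2.

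Single probe sets of the members leaned the same way as the gene values. Of 365 kept probe sets of the 31 genes and Tuba1a, 292 (80.0%) were higher in Nova2 KO, against 51.1% of all kept probe sets, and the median was 0.17 log2 against 0.0061 log2. In 66 of them the groups were separated upwards and in 0 downwards, and the shares over all kept probe sets were 3.05% and 2.04%. None passed the adjusted threshold in limma (0.00681% of all kept probe sets did), and 70 (19.2%) had an unadjusted p under 0.05, against 6.68% of all kept probe sets. Of the 293697 kept probe sets, 198965 named 1 gene, as all of the members do, and the rest named several or none. The background was not matched for brightness either. Probe sets of 1 gene read the same RNA and are not replicates.

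In 9 genes every kept probe set was higher: Stmn1 (13), Marcks (9), Tubb3 (8), Gap43 and Tubb5 (7 each), Tmsb4x (6), Neurod6 and Mllt11 (5 each) and Tmsb10 (3). Dpysl3 (16 of 17) and Stmn2 (14 of 15) came near to that. The least uniform were Ncam1 (27 of 41), Stmn3 (7 of 11), Marcksl1 (3 of 5), Neurod2 (2 of 4) and St8sia4 (4 of 9). The size of the difference followed no single order by brightness within a gene. In Tubb5, the brightest probe sets, at 13.15 and 13.30 log2 in wild type, differed by 0.14 and 0.082 log2, the dimmest, at 10.98 log2, by 0.48 log2, and the next, at 11.71 log2, by 0.066 log2. In Dpysl3 the dimmest pair, at 8.25 and 8.51 log2, differed by -0.014 and 0.57 log2. In Nnat the brightest pair, at 12.99 log2 each, differed by 0.036 and -0.020 log2, and the probe set at 11.53 log2 by 0.60 log2.

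**Figure D4:**
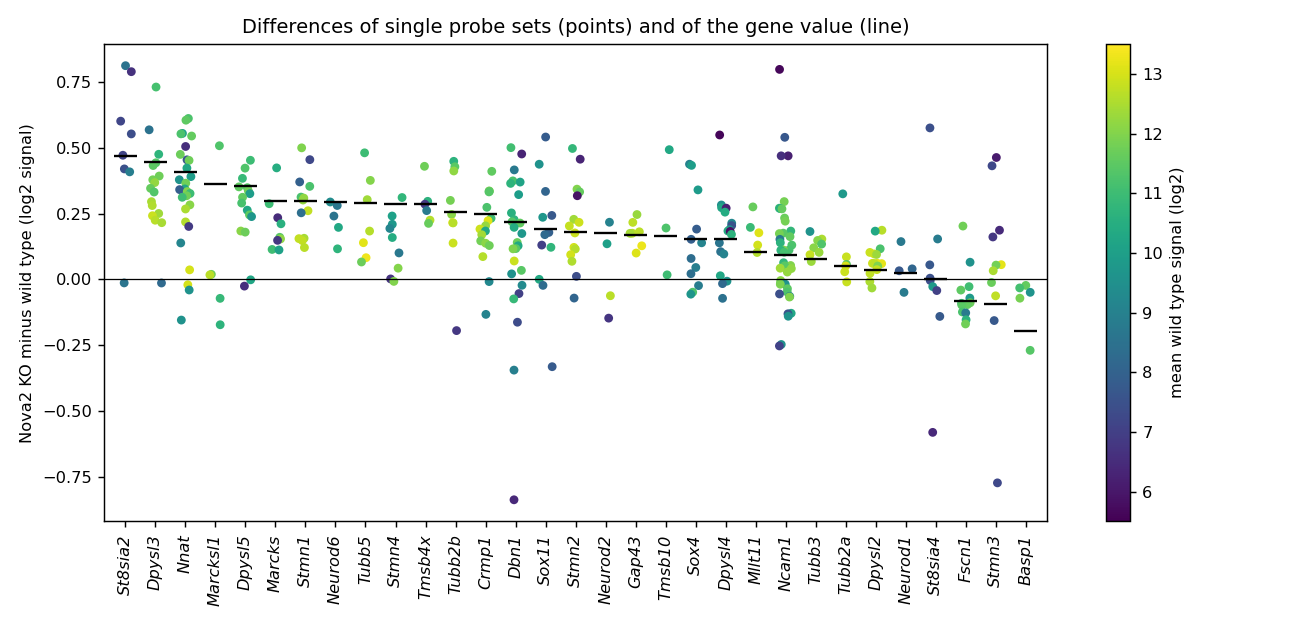
Difference between Nova2 KO and wild type (y axis, log2 signal) of each kept probe set of the 31 genes, coloured by its mean wild type signal (log2), with the gene value difference as a black line. Of the 365 kept probe sets counted with Tuba1a, 292 lie above 0; the line of Marcksl1 lies away from most of its points, and the widest scatter is that of dim probe sets in Dbn1, Ncam1, St8sia4 and Stmn3.

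Exon usage asked whether a probe set of a member departed from its own gene, since Nova2 acts on splicing. On each array the gene value was subtracted from the log2 signal of the probe set, in the 28 members with 5 or more kept probe sets. Of 352 such probe sets, 0 passed the adjusted threshold in limma, against 0.0133% of all 195014. At an unadjusted p under 0.05 there were 19, where 6.76% of all probe sets had such a p, and in 13 the groups did not overlap, where 4.12% of all did not. The shares of the members were near the background.

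Of each gene the probe set that departed most was looked at, and several departures were of probe sets that did not share the higher level of their gene. Probe set 4518547 of Dpysl3 was at 8.25 ± 0.078 log2 in wild type against 8.23 ± 0.074 log2 in Nova2 KO, and its exon usage differed by -0.46 log2 (SE 0.088). In St8sia2, 4782484 read 8.61 ± 0.090 and 8.60 ± 0.13 log2, with exon usage at -0.48 log2 (SE 0.21). The bright probe set 4778238 of Stmn4 read 11.99 and 11.98 log2, with exon usage at -0.29 log2 (SE 0.15).

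Other departures went upwards or were on dim probe sets. Stmn2 had its farthest probe set, 5365782, at 10.81 ± 0.18 log2 in wild type against 11.30 ± 0.087 log2 in Nova2 KO, with exon usage at 0.32 log2 (SE 0.11). In St8sia4 the farthest probe set, 5204903, went downwards and was dim, at 6.42 ± 0.44 and 5.84 ± 0.72 log2. Its exon usage was at -0.58 log2 (SE 0.40). Probe set 5586013 of St8sia4, chosen after its values were seen, was at 7.44 ± 0.21 and 8.02 ± 0.13 log2 and had exon usage at 0.57 log2 (SE 0.11). Probe set 5122222 of Dbn1 was dim and scattered, at 6.44 ± 0.98 and 5.60 ± 1.18 log2. In Ncam1, which is spliced into several forms, probe set 4911955 lay farthest from its gene, at 0.70 log2 (SE 0.58), with a dim wild type signal of 5.65 ± 1.29 log2. Which exon each probe set covers was not analysed here.

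Taken array by array, the members separated the groups. The median deviation of the 31 members from their means over the 8 arrays was -0.076, -0.10, -0.063 and -0.15 log2 in wild type 1 to 4 and 0.11, 0.081, 0.16 and 0.12 log2 in Nova2 KO 1 to 4. The same median over all genes was 0.0068, 0.019, 0.031 and -0.097 log2 in wild type and 0.048, 0.019, 0.050 and -0.055 log2 in Nova2 KO. Nova2 KO 4 was thus low for all genes and high for the members. The list was chosen on this contrast, so the separation is no support of its own. Without both arrays numbered 4, 26 of 31 members were higher, with a median of 0.22 log2, and without wild type 4 alone 26 were higher, with a median of 0.15 log2.

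**Figure D5:**
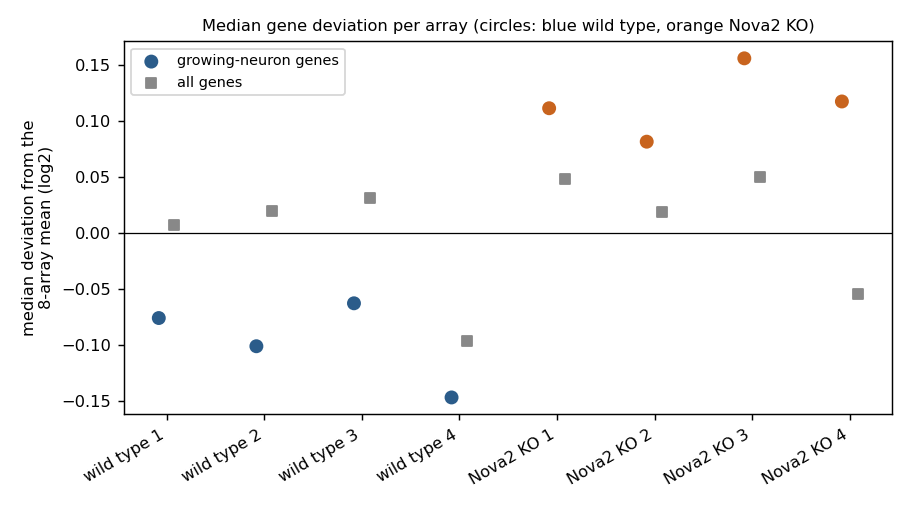
Median deviation of gene values from their 8-array means (y axis, log2) on each array, for the 31 growing-neuron genes (circles) and for all genes (squares). The circles lie between -0.15 and -0.063 in wild type and between 0.081 and 0.16 in Nova2 KO; the squares of both arrays numbered 4 are the lowest.

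Within the groups the members did not move as 1 block. Deviations from the group means over the 8 arrays had a median Pearson correlation of 0.021 over 465 pairs of members (quartiles -0.29 and 0.37). Over all pairs of genes the median was 0.092 (quartiles -0.29 and 0.46). All pairs share the same 8 arrays and their normalization. The collapsin response mediator proteins had a median of 0.40 over 10 pairs, and the tubulins of 0.18 over 6 pairs. Both medians lay between the quartiles of all pairs. The other families had medians below 0: -0.37 for cell surface and polysialic acid genes (3 pairs), -0.24 for growth cone membrane proteins (6), -0.13 for transcription factors (10), -0.10 for stathmins (6) and -0.020 for actin binding proteins (6). Nova2 KO 3 shows the mixed order: it was the highest Nova2 KO array for Nnat, Tmsb4x, St8sia2, Tubb5, Tubb2b and Stmn1, and the lowest for Dpysl2, Crmp1, St8sia4, Sox4 and Fscn1.

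Genes that work with the members, none of them a member, were taken from 7 lists. These lists were drawn up with earlier results of these data known. Their counts and p-values are thus a description and no support of their own. Other genes of young neurons were higher in 26 of 28 measured, with a median of 0.11 log2, where 55.4% of all genes were higher. Of the 28, 1 passed over all genes. This was Dcx, the microtubule-binding doublecortin of migrating neurons, which lay at 9.63 to 10.09 log2 in wild type against 10.56 to 10.79 log2 in Nova2 KO and rose by 0.81 log2 (SE 0.11, n = 4 per group, limma adjusted p = 0.0133). The call was lost with the mean over probe sets and without wild type 1, Nova2 KO 1 or Nova2 KO 3. Mapt, the microtubule-associated protein tau, differed by 0.44 log2 (SE 0.12, limma adjusted p = 0.236) and Cxadr, an adhesion protein of young neurons, by 0.26 log2 (SE 0.089, limma adjusted p = 0.293).

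In the other lists no gene passed in limma over all genes. Of all 118 related genes, Dcx included, 14 (11.9%) had an unadjusted p under 0.05, a share near the 11.6% of all genes. By direction, 13 were higher and 1 lower at that p, against 7.86% and 3.72% of all genes. Of the 118, 67.8% were higher and 9.32% were separated upwards, against 55.4% and 5.06% of all genes. Tubulin isotypes and folding cofactors were higher in 11 of 16 (median 0.067 log2), led by the cofactors Tbcc (0.22 log2, limma adjusted p = 0.398) and Tbca (0.28 log2, limma adjusted p = 0.435), with the beta tubulin Tubb6 at -0.28 log2 (limma adjusted p = 0.472). Actin regulators were higher in 14 of 19 (median 0.094 log2), with Cttn, which encodes cortactin, at 0.24 log2 (limma adjusted p = 0.368) and the cofilin family genes Dstn at 0.28 log2 (limma adjusted p = 0.419) and Cfl2 at 0.23 log2 (limma adjusted p = 0.437). Semaphorin 3A receptors and kinases that act on collapsin response mediator proteins were higher in 9 of 16 (median 0.025 log2), with the kinase genes Rock1 at 0.23, Gsk3b at 0.21 and Cdk5 at 0.22 log2 (limma adjusted p = 0.485, 0.499 and 0.519). Partners of Ncam1 and other sialyltransferases were higher in 5 of 13 (median -0.024 log2), with the sialyltransferase genes St8sia5 at -0.23 and St8sia3 at -0.21 log2 and the phosphatase gene Ptpra at 0.21 log2 (limma adjusted p = 0.448, 0.499 and 0.457).

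Kinases, phosphatases and calmodulins that act on Gap43, Marcks and the stathmins were higher in 8 of 14 (median 0.049 log2). Mapk8, which encodes the stathmin kinase JNK1, was 0.44 log2 higher (SE 0.11, limma adjusted p = 0.195), its groups being separated. Prkcd, a protein kinase C gene, was 0.27 log2 higher (SE 0.088, limma adjusted p = 0.283), also with separated groups, and Calm3, a calmodulin gene, was separated the other way at -0.28 log2 (SE 0.092, limma adjusted p = 0.283). Factors that act before, with or against the Sox and Neurod members were higher in 9 of 14 (median 0.10 log2). The largest differences there were those of Id3 (0.56 log2, limma adjusted p = 0.263), Id2 (0.38 log2, limma adjusted p = 0.341) and Hes1 (0.34 log2, limma adjusted p = 0.380), which encode inhibitors of basic helix-loop-helix activators.

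Markers of other cells that cortex holds were read beside the members, from lists also drawn up with earlier results of these data known. Mature neuron genes were lower in 10 of 15 (median -0.19 log2), and their summed level was 15.22 to 15.31 log2 in wild type against 15.09 to 15.26 log2 in Nova2 KO. The ranges of the sums overlapped. Camk2a, the kinase subunit of mature excitatory synapses, differed by -0.35 log2 (limma adjusted p = 0.266) and Syn1, the vesicle protein synapsin, by -0.25 log2 (limma adjusted p = 0.296). The other 5 genes were higher: Vsnl1 by 0.13 and Snap25 by 0.11 log2 (limma adjusted p = 0.685 and 0.777), and Syt1, Syp and Nrgn by less. Oligodendrocyte and myelin genes were lower in 11 of 12 (median -0.36 log2), at a sum of 12.98 to 13.14 log2 in wild type against 12.64 to 12.85 log2 in Nova2 KO, and 2 of them passed over all genes. Mal, a proteolipid of myelin, fell by 1.03 log2 (SE 0.16, limma adjusted p = 0.0251) and Mog, a myelin glycoprotein, fell by 0.77 log2 (SE 0.13, limma adjusted p = 0.0301). The list was uneven, and its lineage genes differed less, apart from Gpr17 at -0.36 log2. Pdgfra, Olig1 and Olig2 differed by -0.10, -0.11 and -0.0075 log2, and Sox10 by 0.046 log2 (limma adjusted p = 0.732, 0.775, 0.990 and 0.914). Microglial genes were lower in 7 of 8 (sum 11.38 to 11.77 and 11.38 to 11.54 log2), vessel genes in 7 of 8 and astrocyte genes in 6 of 8.

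Markers of migrating neuroblasts and interneuron precursors were higher in 8 of 10 (median 0.12 log2), at a sum of 12.11 to 12.26 log2 in wild type against 12.11 to 12.32 log2 in Nova2 KO. The sum weighs bright genes most, and the brightest were Gad1, Gad2 and Etv1, at wild type means of 10.26, 10.001 and 9.47 log2. Whether these genes are confined to such cells was not tested. Dlx1 differed by 0.29 log2 (limma adjusted p = 0.284), and Dlx2, Dlx5 and Dlx6 by 0.22, 0.25 and 0.18 log2 (limma adjusted p = 0.527, 0.566 and 0.673). The lower genes were Sp9 at -0.50 log2 and Gad2 at -0.20 log2 (limma adjusted p = 0.283 and 0.485). Of 10 markers of dividing progenitors 5 were measured, and 3 were higher (sum 10.07 to 10.34 and 10.15 to 10.45 log2). Lists for striatum, hippocampus, thalamus and for ependyma and choroid plexus held 3 or 4 measured genes each, with medians of 0.026, -0.14, -0.034 and 0.078 log2. In hippocampus, 2 of 4 were separated downwards, Wfs1 at -0.45 and Grik4 at -0.23 log2 (limma adjusted p = 0.185 and 0.398), where 2.5% of all genes were. In thalamus, Prkcd, given above as a kinase gene, was separated upwards (0.27 log2), and the other 3 were lower with overlapping groups. The lowest gene value of any measured marker was 6.42 log2, that of Eomes on Nova2 KO 4, so none lay at the array floor near 4 log2. The part of these cells in the member differences was not tested.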

How the data were processed

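Exon arrays of 8 cortices (4 wild type, 4 Nova2 KO) were read. The deposited values are log2 signals of 391597 probe sets, made by the authors with PLIER per the submitters' processing notes; version, background correction, normalization and build are not given in the sources used here, and the smallest values lie near 4. They were used as deposited. Names came from the platform annotation, updated through RefSeq synonyms; 228454 probe sets named 1 gene, 3443 several and 159700 none here. Probe sets with an 8-array mean above the 25th percentile (5.86 log2) were kept. Gene values needed 3 of them and exon usage 5. Fits were Nova2 KO minus wild type over all features with limma 3.58.1 in R 4.3.3, two-sided, with Benjamini-Hochberg adjustment at 0.05, and were tested on simulated data. Array number limits precision, and SEs and p-values rest on the spread between these mice as moderated by limma over all features. Members and lists were chosen with earlier results of these data known. Array values were printed for members with separated groups and for the 12 largest differences. Of related lists, genes past the threshold and up to 3 of lowest p were named. Of exon usage, the farthest probe set of a gene was shown, and in St8sia4 another chosen after its values were seen.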

Additional observations from a re-analysis of the deposited data

Results flagged for a closer look

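In 62 groups of 4 arrays (31 genes, both groups), 4 had an array that stood far from the other 3; chance gives about 1 in 20 groups. Marcksl1 on Nova2 KO 4 was at 11.92 log2, against 11.53 to 11.60 log2 on the other Nova2 KO arrays. Stmn2 on wild type 4 was at 12.27 log2, against 12.38 to 12.41 log2. Sox4 on Nova2 KO 3 was at 8.98 log2, against 9.13 to 9.15 log2, and St8sia4 on the same array was at 7.35 log2, against 7.66 to 7.69 log2.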

How the results depend on the processing

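The member median stayed above 0 under all 17 other settings, at 0.15 log2 (without wild type 4) to 0.23 log2 (without Nova2 KO 4), with 24 (without Nova2 KO 1) to 29 members higher. Leaving out wild type 1 gave 0.23 log2, and 0.22 log2 came from leaving out both arrays numbered 4, a setting chosen after seeing the data; the cause was not tested. With a replicate block, 1 member passed over all genes (Dpysl3), and 80 genes passed in all against 25. Nothing in the labels says what the number stands for. Deviations of same-numbered arrays correlated at 0.14, 0.33, 0.024 and 0.57, so 3 of 4 were above 0.1 and replicate 3 was not; not every array correlated best with its own number. Whether the numbers mark a pairing is therefore not settled, and they were not used as one. The count of related genes past the threshold was 1, and 0 with the mean over probe sets; leaving out single arrays gave 0 to 1. No member probe set passed in exon usage under any setting. With the mean over probe sets, Dpysl3 was at 0.35 and Dpysl5 at 0.27 log2. Under some setting the sign turned for Dpysl2, Neurod1, Tubb2a, St8sia4 and Stmn3, but for none of the 6 genes with separated groups. Dim probe sets limit Stmn3, St8sia2 and St8sia4.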
